A study of Mus musculus with 12 samples.

Results

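The control embryos described here were mouse embryos at the 8-cell stage, represented by the 2 libraries whose labels name a non-targeting (NT) siRNA, out of 12 libraries in the series. Each library was made from 10 pooled embryos. Zygotes from crosses of B6129F1 females, 3 to 5 weeks old, with B6CBAF1 males were injected 8 to 9 h post-fertilization with 15 µM NT siRNA and 150 ng/µl H2B-EGFP mRNA, a fluorescent histone that marks injected cells, and were cultured in KSOM. The other 10 libraries, in which Nr5a2, Klf5 or both were knocked down, were not used, so the baseline is that of injected, cultured embryos with a control siRNA. Sex was not selected, and pooling averages any difference among the 10 embryos. The labels do not say whether the 2 pools came from separate days or matings, so the spread between them may be partly technical. Both libraries contain ERCC spike-in RNA, added at lysis, and were made with SMART-seq v4, which copies polyadenylated RNA from its tail and keeps neither strand nor molecule identity.

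By the 8-cell stage the mouse embryo has replaced most of the mRNA inherited from the egg with transcripts of its own genome. Its cells are still alike in shape and fate, and they are about to compact, to acquire apical and basal sides and then to separate into trophectoderm, which forms the placenta, and inner cell mass, which forms the embryo and the yolk sac endoderm. Transcription factors of both fates are known to be present together before that separation.

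The 2 libraries held 7125468 and 7781886 counts on annotated genes. Throughout, paired values are for replicate 1 and replicate 2 in that order, and levels are in TPM, that is, counts divided by gene length and scaled so that the 55401 annotated genes of a library sum to 1000000. A count was worth 0.236 and 0.215 TPM for a gene of 1000 bases. A gene was taken as detected at 1 TPM or more in both libraries, a level that 11051 genes reached, of which 8257 were protein-coding. These 8257 were 37.7% of the 21897 protein-coding genes listed. At 10 TPM or more in both there were 4474 genes, at 100 TPM 1014 genes and at 1000 TPM 126 genes. Among the 11051 detected genes the log2 TPM of the libraries correlated with Pearson's r = 0.97 and Spearman's rho = 0.94, a description across genes, which are not independent replicates.

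The transcript pool was concentrated in few genes. The 10 most abundant genes held 26.1% and 25.8% of all TPM (25.9% ± 0.226, SD, n = 2), and 73 genes held the first 50% of the mean of both libraries. The 100 most abundant held 54.5% and 53.9%, and the 1000 most abundant held 84.2% and 83.9%. Within nuclear protein-coding genes alone the pool was spread more widely, with 140 genes for the first 50% and 17.8% and 16.8% in the first 10. These shares are per molecule as far as gene length allows. Without the length correction, 241 genes held the first 50%. The 96 nuclear protein-coding genes at a mean of 1000 TPM or more had a median exon length of 1327.5 bases, and the 5167 at 1 to 10 TPM one of 4437 bases.

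**Figure D1:**
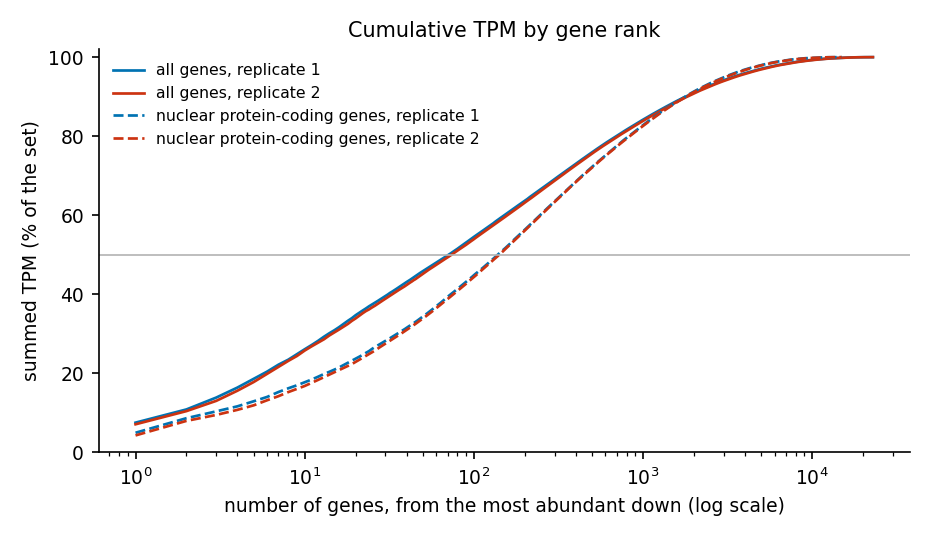
Summed TPM as a percentage of the set (vertical axis) against the number of genes taken from the most abundant down (horizontal axis, log scale), for all genes (solid) and for nuclear protein-coding genes (dashed) in each control library. The lines of the 2 libraries run together, and those of all genes cross 50% at 71 and 74 genes, to the left of those of nuclear protein-coding genes.

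Of the 10 most abundant genes, 3 were mitochondrial mRNAs, 1 was a mitochondrial rRNA, 1 a mitochondrial tRNA gene, 2 were nuclear protein-coding genes and 3 were annotated as processed pseudogenes, which are copies of an mRNA inserted into the genome. The tRNA gene, mt-Tl1, is 75 bases long and lies directly between mt-Rnr2 and mt-Nd1. It had 4456 and 4314 counts, against 169069 and 188720 for mt-Rnr2, and how many came from reads of its neighbours was not tested. The 2 nuclear protein-coding genes were Dppa3 and Rpl41. Dppa3 (Stella), a maternal and pluripotency protein that protects methylated DNA in the zygote, was at 30025 and 25926 TPM from 113318 and 107654 counts. Rpl41, the smallest protein of the ribosome, was at 22210 and 22130 TPM. The third nuclear protein-coding gene in the order was Dppa5a, an RNA-binding protein of pluripotent cells, at 10443 and 9073 TPM. Its values stayed below both values of Rpl41, as those of Rpl41 did below both values of Dppa3.

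The 3 pseudogenes were more abundant than any nuclear protein-coding gene other than Dppa3 and Rpl41. Gm12617 lies on chromosome 11 at 60692695 to 60693075, minus strand, and Gm11517 on chromosome 11 at 96795439 to 96795825, minus strand (GRCm38). Gm5612 lies on chromosome 9 at 18427543 to 18427917, plus strand, and resembles Map1lc3b, which encodes LC3B, the ubiquitin-like protein that is attached to autophagosome membranes. The first 120 bases of Gm5612 and of the Map1lc3b coding sequence are shown as an example of how alike the pseudogene and the gene are, and they hold 2 of the 13 differences found over the whole length. They are given from GENCODE M21, 5′ to 3′, with the bases of Gm5612 that differ from the coding stretch in capitals.
Gm5612: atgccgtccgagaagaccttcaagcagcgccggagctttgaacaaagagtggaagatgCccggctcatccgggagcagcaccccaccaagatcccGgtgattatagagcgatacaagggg
Map1lc3b: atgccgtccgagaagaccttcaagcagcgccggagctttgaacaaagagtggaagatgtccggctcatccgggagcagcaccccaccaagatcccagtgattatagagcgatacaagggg

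Gm12617 was at 18262 and 20557 TPM, Gm11517 at 12618 and 15197 TPM, and Gm5612 at 12270 and 13767 TPM. All 3 were higher in replicate 2. Map1lc3b was lower than Gm5612 in both libraries, at 1970 and 1977 TPM, but its exons are far longer than its coding part, which lowers a value per length. On the count scale the order was the opposite, with 19468 counts for Gm5612 and 62663 for Map1lc3b in replicate 1. Over its whole length, Gm5612 differed from Map1lc3b at 13 of 375 bases (96.5% identity), and of the 12 codons that differed 6 changed the amino acid. None of the 100-base windows of the 3 pseudogene transcripts occurred in another annotated transcript, so sequence of that length at these loci differed from every other annotated transcript by at least 1 base. Read in frame from the first ATG, Gm12617 and Gm11517 had no stop codon before the last of their 127 and 129 codons, and Gm5612 had none in 125 codons. Whether these RNAs are translated was not measured.

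Other abundant pseudogenes could not be separated from a source gene in this way. Gm10736 (2821 and 2919 TPM, 78 bases long) was identical to the coding sequence of Rpl41. Gm8186 was identical to that of Snrpg, a protein of the spliceosome core, and all of its 100-base windows were shared with other transcripts. For Rpl36-ps8, 86.6% of windows were shared. The levels of these loci are uncertain, since reads from a gene and from its copy cannot be told apart where they are identical.

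Behind the first 3 nuclear protein-coding genes came a group between 6203 and 7754 TPM that included regulators of the cell cycle, of protein turnover and of metal and purine metabolism. Cks2, a small subunit of cyclin-dependent kinases, was at 7632 and 7735 TPM. Hprt, which salvages hypoxanthine and guanine, was at 7754 and 6932 TPM, and Eloc, the elongin C subunit of ubiquitin ligases, was at 6644 and 7713 TPM. Mt1, a metallothionein that binds zinc, was at 7472 and 6203 TPM. Values of neighbours in this order overlapped between the libraries, so their order is not resolved, although both values of Cks2 were above both of Mt1.

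The rest of the 30 most abundant nuclear protein-coding genes lay between 2263 and 6202 TPM. They comprised 8 ribosomal protein genes in all, and Uqcrb, Uqcr10 and Cox8a of the respiratory chain. They included Tomm5, a subunit of the mitochondrial import pore, at 4590 and 4995 TPM, and Timd2, a cell surface receptor for ferritin, at 4690 and 4309 TPM. Crxos, a homeobox gene, was at 4116 and 4813 TPM and was the most abundant listed transcription factor. Also among the 30 were Gcsh of the glycine cleavage system, Npm1 of the nucleolus, Sat1 of polyamine breakdown, the LC3 relative Gabarapl2, the ubiquitin ligase subunit Rnf7, the metallothionein Mt2 and the homeobox gene Obox6. Of the 30 steps from one gene to the next below it, 9 separated genes whose values did not overlap between the libraries. Of the 30 genes, 15 had under 1000 bases of exon.

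**Figure D2:**
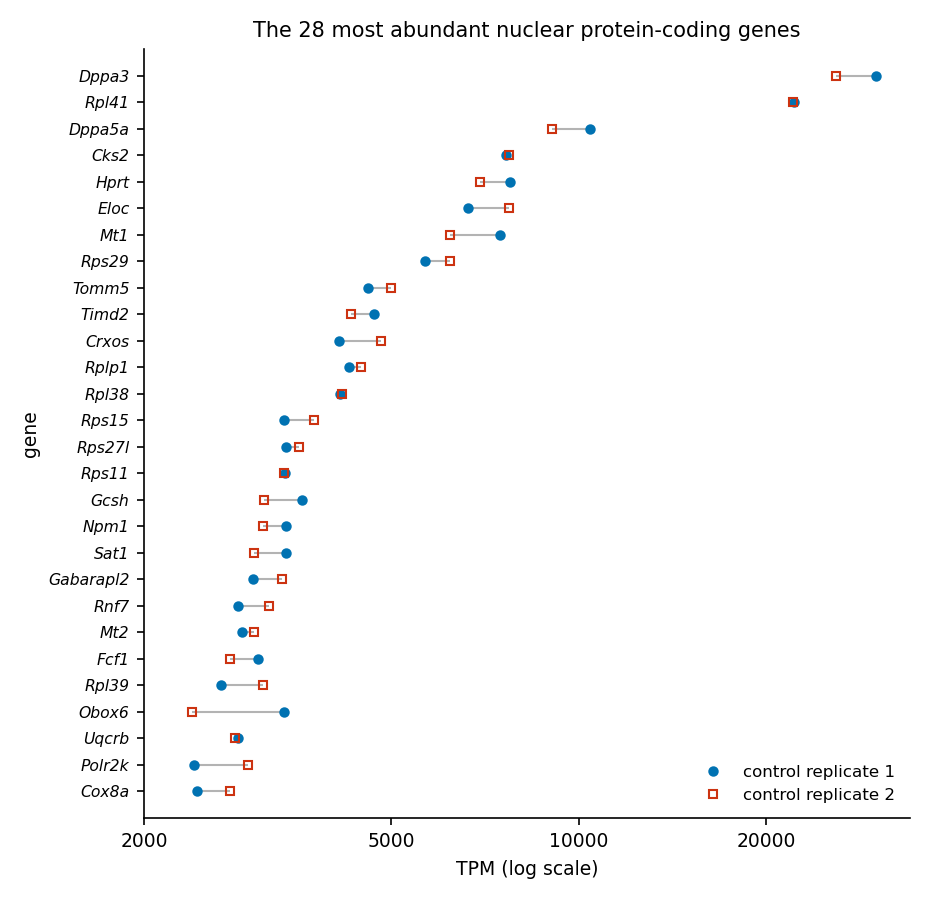
TPM (horizontal axis, log scale) of the 28 most abundant nuclear protein-coding genes (vertical axis, ordered by mean) in control replicate 1 (filled circles) and replicate 2 (open squares), joined by a grey line. Dppa3, Rpl41 and Dppa5a stand apart at 9073 TPM or more, and Obox6 has the widest gap between libraries, 3359 against 2392 TPM.

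Genes of the mitochondrial chromosome took 13.2% and 12.9% of gene counts and 23.5% and 22.7% of TPM. mt-Cytb, a subunit of complex III, was the most abundant gene of all at 75353 and 71214 TPM, followed by mt-Nd1 of complex I at 33426 and 33348 TPM. The large ribosomal RNA mt-Rnr2 was at 25258 and 25626 TPM, mt-Nd2 at 17509 and 17655 TPM and mt-Nd4 at 10841 and 10757 TPM. At the other end, mt-Co2, mt-Co3, mt-Atp6, mt-Atp8 and mt-Nd4l were between 21.4 and 66.5 TPM, although mitochondrial mRNAs are cut from long common precursors. For 4 of these 5, 98.5% to 99.9% of their 100-base windows also occurred in an annotated pseudogene copy, as did 97.6% of those of mt-Nd3, which was at 481 and 467 TPM. The exceptions ran both ways: mt-Atp8, with none of its windows shared, was at 64.3 and 66.5 TPM, and mt-Nd4 had 60.8% of windows shared. These copies were also low, as for Gm28661, the copy of mt-Co2, at 38.2 and 51.6 TPM. The share of windows therefore moved with the level across most of these genes, and its part in the low values was not tested. mt-Nd6, which lies on the opposite strand, was at 5284 and 5536 TPM, but without strand its reads cannot be told from reads of the other strand there.

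**Figure D3:**
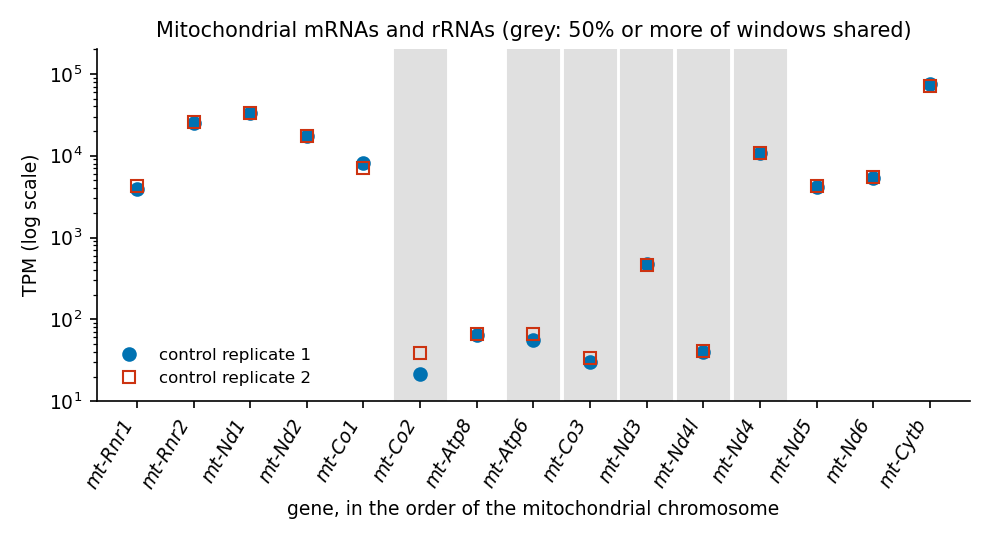
TPM (vertical axis, log scale) of the 13 mitochondrial mRNAs and 2 rRNAs in the order of the chromosome (horizontal axis), for control replicate 1 (filled circles) and replicate 2 (open squares), with grey behind genes of which 50% or more of the 100-base windows occur in another annotated transcript. Of the 6 genes on grey, 5 lie at 481 TPM or less and mt-Nd4 lies at 10757 TPM or more, while mt-Atp8 is low without grey.

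By function, cytosolic ribosomal protein genes formed the largest nuclear group examined. Their 86 members were all detected and held 11.6% and 12.0% of TPM. For comparison with the counts detected in this and the following groups, 37.7% of all nuclear protein-coding genes were detected. Subunits of oxidative phosphorylation encoded in the nucleus held 2.90% and 2.97%, with 93 of 96 detected. Cell cycle genes (74 of 88), translation factors (64 of 72) and splicing proteins (91 of 104) each held between 1.02% and 1.20%. The proteasome held 0.858% and 0.790%, with 45 of 49 detected. The most abundant members were Rpl41, Uqcrb and Cks2 of the ribosomal, oxidative and cell cycle groups, and, of the other 3 groups, Eif2s2 (1645 and 1491 TPM), a subunit of the factor that brings the initiator tRNA, Snrpe (1831 and 2054 TPM) of the spliceosome core, and the proteasome subunit Psma6 (1569 and 1387 TPM).

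Glycolytic enzymes held little of the pool. The 25 listed genes together held 0.0125% and 0.0123% of TPM, and 12 were detected, next to 37.7% of all nuclear protein-coding genes. Of the groups examined, keratins held less, 0.00254% and 0.00299%. Ldhb, the lactate dehydrogenase subunit of oxidative tissues, was the highest at 57.8 and 61.8 TPM, whereas Ldha was at 2.43 and 1.10 TPM, from 34 and 17 counts. Gapdh was at 3.20 and 5.56 TPM, and Pgk1 at 1.58 and 3.54 TPM. Pyruvate enters mitochondria through a carrier whose subunits Mpc1 and Mpc2, chosen after their values were seen, were at 322 and 313 TPM and at 191 and 184 TPM. Slc2a3, a glucose transporter, was at 2.09 and 2.49 TPM. For Gapdh and Pgk1, 20.9% and 51.7% of 100-base windows occur in other transcripts, and the part of this in their values was not tested. For Ldha the share was 0.590%.

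Genes commonly used as references for normalization spanned more than 3 orders of magnitude in the control embryos. Hprt (7754 and 6932 TPM), Rps29 (5668 and 6202 TPM), the cyclophilin Ppia (1621 and 1820 TPM) and the histone variant H2afz (1154 and 999 TPM) were high. Actb, the cytoplasmic actin, was at 84.3 and 59.5 TPM and Tbp at 9.88 and 9.98 TPM. Of the 16 listed, 15 were detected, next to 37.7% of all nuclear protein-coding genes. The exception was Gusb at 0.831 and 2.69 TPM.

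Among 1216 protein-coding genes listed as transcription factors by symbol family, 420 were detected (34.5%), next to 37.9% of the other nuclear protein-coding genes. They summed to 19426 and 19158 TPM, and most of this lay in few genes: Crxos and Obox6 held 38.5% and 37.6% of it, and the first 6 held 58.1% and 59.3%. Obox6 was at 3359 and 2392 TPM. Sox15, an HMG-box protein related to Sox2, was at 1271 and 1259 TPM, the zinc finger protein Zfp706 at 958 and 1135 TPM, Obox8 at 739 and 942 TPM, and Spic, an ETS factor, at 841 and 813 TPM. No value of these 6 fell below any value of the factor next in order, Ybx1, at 349 and 304 TPM. Of the 6 steps from Crxos down to Ybx1, 5 separated neighbours whose values did not overlap, as did 5 of the 34 steps below Ybx1.

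**Figure D4:**
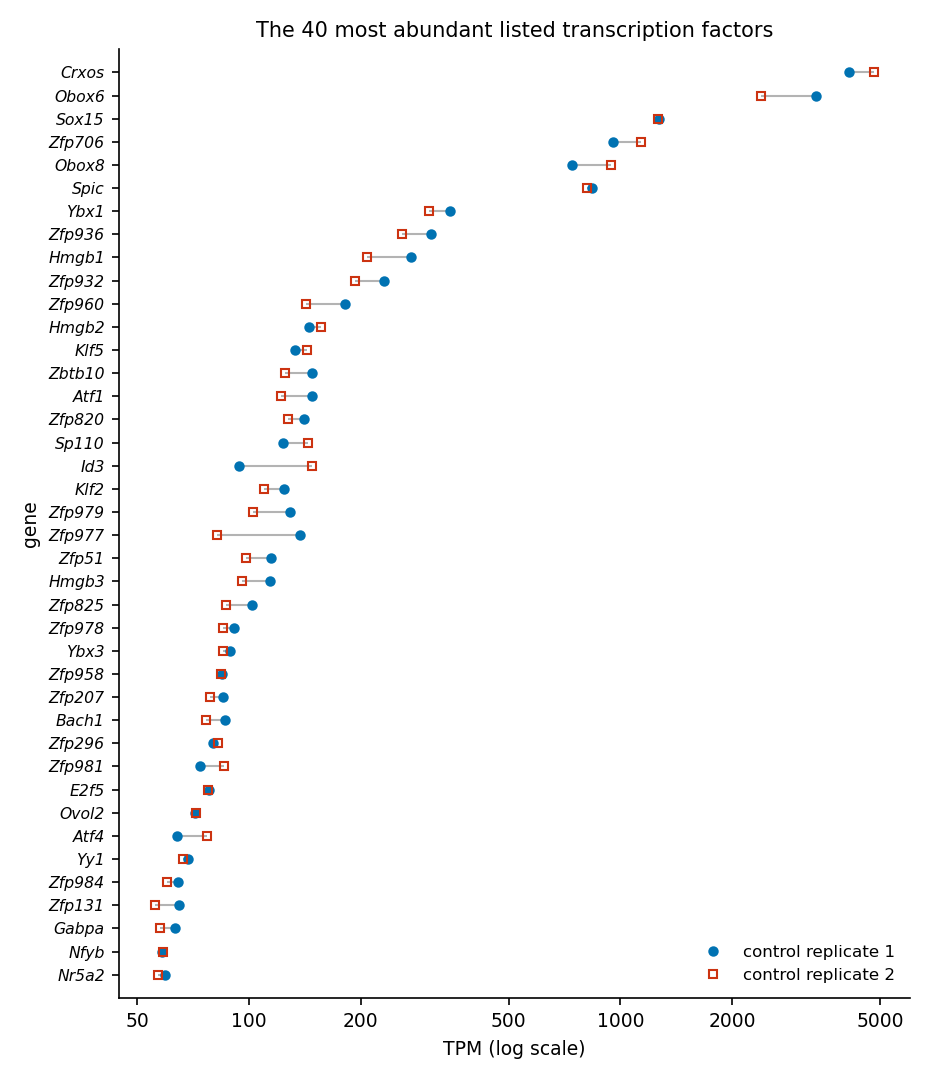
TPM (horizontal axis, log scale) of the 40 most abundant listed transcription factors (vertical axis, ordered by mean) in control replicate 1 (filled circles) and replicate 2 (open squares), joined by a grey line. The first 6, from Crxos to Spic, lie at 739 TPM or more, and the remaining 34, from Ybx1 to Nr5a2, lie between 56 and 349 TPM.

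Klf5 and Nr5a2, the factors that the other libraries of the series targeted, were ranked 13 and 40 among the listed factors. Values overlapped between Klf5 and the next factor, Zbtb10, and between Nr5a2 and its neighbours Nfyb and Foxr1. The ranks are therefore approximate, and they depend on the list. Klf5, a zinc finger factor of the inner cell mass and trophectoderm, was at 133 and 144 TPM, from 2932 and 3478 counts. Nr5a2, an orphan nuclear receptor, was at 59.5 and 57.1 TPM, from 1485 and 1567 counts, and was the highest of 49 nuclear receptors. Of these 49, 12 were detected, next to 34.5% of all listed factors. Gata6, the zinc finger factor of the primitive endoderm, was at 35.3 TPM in both libraries and ranked 60. None of the 100-base windows of these 3 genes was shared with another transcript.

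Zinc finger genes of the Zfp, Zscan, Zkscan and Zbtb type made up 470 of the 1216 listed factors, 213 of the 420 detected and 17 of the first 40, so their part in the first 40 was close to their part in the list. Zfp936 was at 308 and 258 TPM and Zfp932 at 231 and 193 TPM. Many of these genes lie in clusters of close relatives, and for Zfp960 (182 and 143 TPM) 68.3% of windows were shared with another transcript, so its level is less certain than that of Zfp936, with 4.04%. The Klf family had 11 of 17 members detected, next to 34.5% of all listed factors. Detected members included Klf2 (125 and 110 TPM), Klf17 (37.7 and 30.3 TPM) and Klf4 (23.9 and 34.7 TPM). By contrast, 1 of 39 Hox genes and 3 of 19 Sox genes were detected. The Pou family and the remaining homeobox genes were also sparse: 3 of 15 Pou genes and 20 of 135 homeobox genes outside the named families were detected.

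Of 21 genes listed for inner cell mass and pluripotency, 20 were detected, next to 37.7% of all nuclear protein-coding genes. Levels within the list differed widely. After Dppa3 and Dppa5a came Dppa2 (729 and 553 TPM) and Dppa4 (454 and 420 TPM), which act together on chromatin. The core factors were much lower: Nanog was at 8.86 and 8.91 TPM, Pou5f1 (Oct4) at 6.73 and 10.0 TPM, Esrrb at 5.51 and 4.76 TPM and Sox2 at 0 and 0.731 TPM. Sox2 was the one gene of the list that was not detected.

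Of 18 trophectoderm genes, 8 were detected, a share near the 37.7% of all nuclear protein-coding genes, and the highest were transcription factors. Tead4, which with Yap turns on trophectoderm genes, was at 43.6 and 42.6 TPM, Hand1 at 33.8 and 39.5 TPM and Tfap2c at 27.5 and 25.8 TPM. Cdx2, the factor that defines the lineage, was at 0.209 and 0.665 TPM, Gata3 at 0.951 and 2.75 TPM and Krt8 at 2.29 and 2.30 TPM. Gata2 and Krt19 had no count in either library. In the primitive endoderm list Gata6 (35.3 TPM in both), Gata4 (7.33 and 5.12 TPM) and Dab2 (4.64 and 6.41 TPM) were detected out of 13, while Sox17, Sox7, Foxa2, Hnf4a and Lama1 had no count.

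Of 26 genes for compaction and polarity, 20 were detected and 10 reached 10 TPM in both libraries, next to 37.7% and 16.3% of all nuclear protein-coding genes, and the median of the list was 4.98 TPM. Cdc42, a GTPase that organizes the cell cortex, was at 423 and 404 TPM and Rhoa at 51.8 and 63.5 TPM. The tight junction protein F11r was at 47.4 and 56.9 TPM, and the adhesion protein Cdh1 (E-cadherin) at 12.9 and 11.8 TPM. Polarity and cortex genes spanned a wide range, with Prkcz at 14.5 and 16.7 TPM, Rdx at 8.24 and 8.53 TPM, Pard6a at 3.14 and 4.48 TPM, Pard3 at 0.509 and 0.839 TPM, Scrib at 0.733 and 0.366 TPM and Ezr at 0.647 and 0.131 TPM. Among 34 chromatin regulators 30 were detected, a larger share than the same 37.7%, led by the cohesin subunit Rad21 (163 and 183 TPM), Suz12 (150 and 134 TPM), the chromatin remodeller Smarca5 (137 and 118 TPM) and Eed (127 and 104 TPM). Suz12 and Eed belong to the Polycomb complex that methylates histone H3. Their catalytic partner Ezh2 was lower, at 21.2 and 23.4 TPM. Of the DNA methyltransferase family, the cofactor Dnmt3l was the highest, at 26.3 and 27.1 TPM, and the maintenance enzyme Dnmt1 was at 1.01 and 1.40 TPM.

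Of 28 signalling ligands and receptors, 8 were detected, next to 37.7% of all nuclear protein-coding genes. Tdgf1, a co-receptor for Nodal, was at 19.4 and 32.7 TPM, Igf2r at 19.3 and 20.4 TPM, Bmpr1a at 20.2 and 17.6 TPM, Fgfr2 at 6.89 and 8.88 TPM and its ligand Fgf4 at 4.44 and 5.65 TPM. Nodal, Acvr1b and Wnt3a had no count.

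Of 25 genes of the burst of transcription at the 2-cell stage, 8 were detected, a share near the 37.7% of all nuclear protein-coding genes. The median of the list was 0.297 TPM, near the 0.374 TPM of nuclear protein-coding genes outside the listed factors. The highest was Sp110 at 124 and 144 TPM, with Tdpoz2 and Tcstv3 between 10.3 and 17.5 TPM. Duxf3, a transcription factor of that stage, had no count, and Zscan4d, by mean the highest of the Zscan4 genes, was at 1.35 and 1.32 TPM. The close similarity of the Zscan4 genes, 72.8% of whose windows were shared in the case of Zscan4c, makes these low values uncertain. Of 33 oocyte and maternal genes, 21 were detected, a larger share than the same 37.7%, with a median of 3.63 TPM over the list. The highest were Khdc3 (69.3 and 82.3 TPM), Npm2 (56.3 and 79.5 TPM), the zona pellucida gene Zp3 (54.8 and 55.0 TPM) and Oosp1 (41.3 and 52.3 TPM). The kinase gene Mos and the oocyte factor gene Figla had no count.

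Markers of other cell types that could be carried along with embryos were mostly not detected, with some at up to 18.4 TPM. Of all nuclear protein-coding genes 37.7% were detected, so most genes of any kind were not detected either. Of 18 cumulus and granulosa cell genes, 1 was detected, Amhr2 at 8.25 and 13.0 TPM, and the summed level of the list was 10.3 and 15.4 TPM. The steroid enzymes Cyp19a1 and Cyp11a1, the inhibin subunits Inha and Inhba and the receptor Lhcgr had no count. Of 9 sperm genes, Prm2 (2.91 and 3.36 TPM) and Prm1 (1.24 and 2.63 TPM) were detected, and Tnp1, Tnp2, Akap4 and Acr had no count. Of 22 genes of the oviduct, stroma, vessels and blood, 6 were detected, with Epcam, which embryonic epithelium also makes, the highest at 13.9 and 18.4 TPM. The haemoglobin gene Hba-a1 was at 13.0 and 6.35 TPM, from 44.5 and 24 counts, and Pecam1, an adhesion protein of vessels, at 5.50 and 5.57 TPM, from 145 and 161.5 counts. The list summed to 38.6 and 37.9 TPM, and 12 of its genes had no count, among them Ptprc (CD45), Col1a2, Col3a1, Acta2 and Cdh5. Of 16 genes of later germ layers, 3 were detected, among them Mixl1 (7.62 and 9.18 TPM) and Pax6 (3.73 and 3.27 TPM), and T, Sox1, Alb and Ttr had no count. Fewer cells of a type and less RNA per cell cannot be told apart in pooled embryos.

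Genes of both sex chromosomes were present in both pools. On the Y chromosome, 3 nuclear protein-coding genes of 175 were detected, among them Ddx3y at 7.36 and 4.30 TPM and Eif2s3y at 5.85 and 4.85 TPM. Detected X-linked genes had a median of 9.83 and 9.68 TPM, and detected autosomal genes 8.12 and 8.51 TPM. Tsix was at 36.7 and 45.1 TPM and Xist, the RNA that silences the X chromosome, at 17.4 and 19.7 TPM. Both overlap on opposite strands, with 12.6% of Xist exon bases inside Tsix exons and 32.6% of Tsix bases inside Xist, so without strand their reads cannot be told apart there.

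Several multigene families that are expressed in few tissues were close to silent. Of 1135 olfactory receptor genes, 9 were detected and 1045 had no count, and of 331 vomeronasal receptors 2 were detected. No keratin-associated protein gene of 57 and no bitter taste receptor gene of 35 was detected. Of families that include genes of early embryos, 33.8% of 68 Trim genes and 35.3% of 17 Nlrp genes were detected, shares near the 37.7% of all nuclear protein-coding genes. Of the Pramef genes 8 of 12 were detected, of the Rhox genes 4 of 34 and of the Usp17l genes 1 of 5. Of the Trim genes, Trim43a (1723 and 1683 TPM), Trim43b (1830 and 1667 TPM) and Trim43c (616 and 353 TPM), chosen after their values were seen, were abundant, and Pramel7, a protein that promotes removal of the DNA methylation cofactor UHRF1, was at 917 and 788 TPM. Metallothioneins also differed within a family, Mt1 and Mt2 being among the 30 most abundant nuclear protein-coding genes, Mt4 at 22.0 and 6.48 TPM and Mt3 without a count.

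Members of paired ribosomal and respiratory gene families, also chosen after their values were seen, differed from the common somatic choice only in part. Rps27l was at 3389 and 3556 TPM and its paralogue Rps27 at 1528 and 1738 TPM, and Rpl39l at 1104 and 1204 TPM accompanied Rpl39 at 2659 and 3102 TPM. In the other pairs the widely expressed form was higher. Rpl3 was at 219 and 190 TPM and the muscle form Rpl3l at 2.16 and 3.92 TPM, Cox6a1 was at 930 and 947 TPM and Cox6a2 at 2.61 and 1.42 TPM, and Cox8a was at 2432 and 2747 TPM and Cox8c at 3.61 and 0.469 TPM.

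By annotated biotype, protein-coding genes held 75.8% and 75.3% of TPM (75.5% ± 0.406, SD, n = 2) and 92.4% and 92.1% of counts. Processed pseudogenes held 7.36% and 8.08% of TPM, with 814 of 9936 detected, and the 3 pseudogenes described above made up most of this. Mitochondrial tRNA genes, with a median length of 68.5 bases, held 5.08% and 4.62% of TPM but 0.213% and 0.195% of counts. MicroRNA genes held 3.20% and 3.23% of TPM, and all long noncoding biotypes together 3.50% and 3.65% with 1127 of 9911 genes detected. Some of the highest lncRNA genes share no exon base with another gene, such as the lincRNA 2310040G24Rik at 1711 and 1764 TPM and the 3-exon Gm47979 at 496 and 650 TPM. Several others of the highest 15 lie over coding exons, such as Gm28037, all of whose bases are in exons of Rpl24, and Gm45507, with 97.1% of its bases inside Bnip3.

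Mature microRNAs have no poly(A) tail, and most of the microRNA TPM lay in genes inside the exons of other genes. The 3 highest, Gm27597 (8877 and 9788 TPM), Gm22953 (6148 and 6833 TPM) and Gm22133 (5444 and 4190 TPM), are 80, 101 and 109 bases long and lie wholly inside exons of Rpl19, Serf2 and Ftl1. Genes of which at least 50% lay in another gene's exons held 91.8% of microRNA TPM and were 116 of the 178 microRNA genes detected. A read pair that overlaps 2 genes was split between them by the authors' counting, and division by so short a length then raised the value, so that Gm27597 stood above its host Rpl19 (1955 and 2178 TPM) from 35.6% as many counts. Genes under 200 bases together took 10.0% and 9.62% of TPM but 0.513% and 0.501% of counts. Left out, the share of protein-coding genes was 83.7%.

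Detection was limited for rare transcripts, and the parts of depth and of loss before sequencing in this were not tested. Of the listed genes, 17297 had a value in both libraries, 32606 had none in either, and 5092 had at least 1 count in one library and none in the other. In these 5092 the median was 2 counts and the highest 35, in Dhrs1, a dehydrogenase, and 250 of them had 10 counts or more. Of genes with exactly 1 count in replicate 1, 54.7% had a value in replicate 2, and the share rose to 78.4% at 4 to 5 counts, 95.5% at 10 to 19 counts and 100% from 50 counts upwards. At 10% of its depth replicate 1 would have kept an expected 13534 of its 19783 genes, and at 50% 17987. The number of genes thus still rose at full depth, by genes of few counts.

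A gene with no count is not shown to be absent. A floor of 3 counts per library corresponds to 0.709 and 0.644 TPM for a gene of 1000 bases and to 0.142 and 0.129 TPM for one of 5000 bases, and it covers counting error only, since PCR copies were not separated. Of the 7012 nuclear protein-coding genes with no count, 6510 have a floor under 1 TPM in replicate 1. In 11.9% of them at least 50% of windows are shared with another transcript, against 4.34% of detected genes, so for these a lack of counts says less. Of 1492 nuclear protein-coding genes with that much shared sequence 24.0% were detected, and of 12609 with none 35.2%. The share did not fall steadily, since it was 44.1% with up to 10% of windows shared and 45.5% with 10% to 50%.

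The spread of single genes between the libraries fell with the count from mean counts of 3 upwards. At mean counts of 1 to 3 the median absolute log2 ratio was 1, against 1.15 from Poisson counting alone, which leaves out differences between pools and in library preparation. Only the 39.9% of these genes with a value in both libraries have a ratio. The median was again 1 at 3 to 10 counts, against 0.66 from counting. At 30 to 100 counts it was 0.40 against 0.19, and at 1000 to 3000 counts it was 0.13 against 0.03. In these 2 ranges the spread beyond counting error corresponds to a coefficient of variation of 25.4% and 8.78% per library. Ratios within 2-fold were found for 65.4% of genes at 10 to 30 counts and for 98.0% at 100 to 300 counts. The spike-in RNA gave a similar picture at low counts, with a median absolute log2 ratio of 0.64 for 7 transcripts at 10 to 30 counts, and a smaller spread at 300 to 1000 counts, 0.06 for 6 transcripts, where genes were at 0.18. Of 92 spike-in transcripts 40 had counts in both libraries and 16 in 1. They made up 0.398% and 0.459% of counts, and the injected H2B-EGFP mRNA had 25 and 39 counts.

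**Figure D5:**
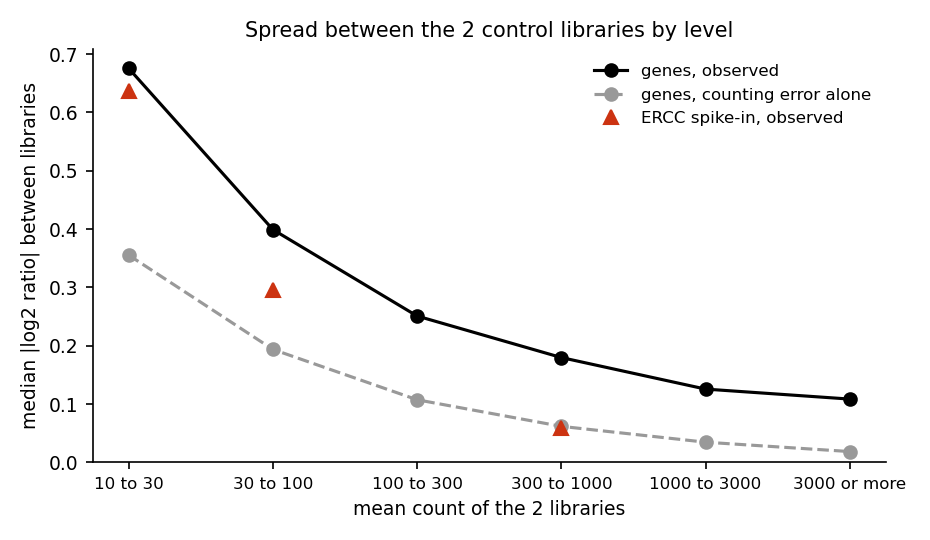
Median absolute log2 ratio of TPM between the 2 control libraries (vertical axis) for genes grouped by mean count (horizontal axis), observed (black), from Poisson counting error alone (grey, dashed) and for ERCC spike-in transcripts in groups with at least 5 (triangles). The observed spread of genes falls from 0.68 at 10 to 30 counts to 0.11 at 3000 or more and stays above the counting error in each group shown.

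Of 5618 genes with a mean count of 100 or more, 56 (0.997%) differed by 2-fold or more, 28 in each direction, and 2 by 4-fold or more. These 2 were Dqx1, a helicase-like gene, at 20.1 and 3.14 TPM, and the bidirectional promoter transcript Gm17251 at 60.4 and 12.8 TPM. Higher in replicate 2 were Esp24, of a family of exocrine gland peptides, at 150 and 413 TPM, and the stress-linked Ddit4l at 4.70 and 13.0 TPM. With 1 group of 2 libraries no test of these differences is possible. Among the factors, chosen after their values were seen, Id3 (94.1 and 148 TPM), Zfp977 (137 and 82.0 TPM) and Obox6 differed most between the libraries in the first 40, and the heat shock proteins Hspa8 (520 and 352 TPM) and Hsp90aa1 (514 and 355 TPM) were both lower in replicate 2.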

How the data were processed

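RNA-seq libraries of control 8-cell embryos were analysed from the gene tables that the authors deposited, which hold estimated counts per gene with gene length. The authors trimmed reads with Trim Galore 0.6.2, aligned them with STAR to GRCm38 and counted read pairs with featureCounts 2.0.1 against Ensembl exons, without strand, splitting a pair over all genes it overlapped. Values are therefore not always whole (7.40% and 7.87% of genes). The counted alignments had been filtered in a way not given in the sources used here. Gene names, biotypes and transcripts came from GENCODE M21 on the same build, an earlier release than the authors', which named 55141 of 55401 genes. TPM was computed without ERCC and H2B-EGFP in the total. Shared sequence was the share of a gene's 100-base windows found in another gene's GENCODE transcripts on either strand. Pseudogenes were aligned with blastn and Biopython. TMM factors came from edgeR 4.0.16, and the remaining steps used Python 3.11.15, pandas 2.3.3 and scipy 1.17.1. Scripts were tested on simulated data.

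No comparison with knockdown libraries and no significance test was made. Named were the 30 highest nuclear coding genes, mitochondrial mRNAs and rRNAs, the 40 highest factors with Nr5a2, Klf5 and Gata6, the 15 highest lncRNAs and 3 per other biotype, of each list the 5 highest and those at 0, of each functional group the 3 highest, and the 10 genes that differed most between libraries at a mean count of 100 or more. Not all of them are printed, some results are not reported here, and further members of lists and families were named after their values were seen. The subject, lists and rules were chosen with earlier results of these data known. Alternatives covered single libraries, other totals, thresholds, CPM, TMM, rounding and genes with values that are not whole.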

Additional observations from a re-analysis of the deposited data

How the results depend on the processing

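Of 56 alternative values for 7 summary results, 36 stayed close to the reported value (within 1.5 times for counts, within the SD of the libraries for shares) and 20 moved, some by a change of definition. Single libraries gave 12443 to 12722 genes at 1 TPM or more, 463 to 484 transcription factors, 71 to 74 genes for the first 50% of TPM, 25.8% to 26.1% in the first 10 genes, 12.9% to 13.2% of counts on mitochondrial genes and 75.3% to 75.8% of TPM in protein-coding genes. There were 6278 genes and 222 factors at 5 TPM and 682 factors at 0.1 TPM. The share of the first 10 genes was 17.9% without mitochondrial genes, 17.4% as CPM, 20.2% without genes whose values are not whole, 28.5% without genes under 200 bases and 17.3% in nuclear protein-coding genes alone, the last pair of alternatives being added after the data were seen. The genes for the first 50% then numbered 150 without mitochondrial genes, 241 as CPM, 116 without values that are not whole and 140 in nuclear protein-coding genes. The protein-coding share was 78.3% without mitochondrial genes, 92.3% as CPM, 83.9% without values that are not whole and 83.7% without short genes. The mitochondrial share was 23.1% of TPM, and 0 without values that are not whole, since each mitochondrial gene with counts has such a value. Genes seen in 1 library numbered 2073 at 3 counts or more and 250 at 10 or more. Single libraries give no value for that result. No paired analysis was possible because the results come from 1 group and no test. Rare transcripts were seen less reliably, and the levels of the genes named with short or duplicated sequence are less certain.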
